A study of Mus musculus with 24 samples.

Results

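The aminoacyl-tRNA synthetases and translation factors are the enzymes and proteins that charge tRNAs and carry the ribosome through initiation and elongation. Their transcripts were followed here in mouse liver, with and without the nuclear receptor PPARα, after a heat shock (HS), after a diet with its agonist WY-14,643 (WY), and after the diet and the heat shock together. Members were chosen by gene symbol, current or older, from a list of 41 genes, and 37 of these had at least 1 probe set on the array, out of 8251 genes with a single symbol. The 37 genes comprised 19 of 20 listed cytosolic synthetases, 13 of 16 initiation factors and 5 of 5 elongation factors, with Eif5a placed among the last. Dars, Eif1, Eif2s1 and Eif3i had no probe set under these names. The members held 45 of the 12422 probe sets, and the brightest probe set, by its mean over all arrays, stands for its gene.

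A synthetase joins 1 kind of amino acid to its tRNA, at the cost of ATP, and so supplies the ribosome with building blocks. Initiation factors bring the initiator tRNA, the mRNA cap and the ribosomal subunits together, and elongation factors deliver charged tRNAs and move the ribosome along the mRNA. When charged tRNAs run short, the kinase GCN2 phosphorylates eIF2, which lowers general initiation and raises translation of the transcription factor ATF4, and ATF4 binds amino acid response elements in front of many synthetase genes. PPARα turns on fatty acid oxidation in hepatocytes. HS acts on heat shock protein genes in part through the factor HSF1, which accounts for a subset of the genes that HS changes.

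RNA of whole liver was hybridised to 24 Affymetrix U74Av2 arrays, 1 mouse to an array, in 8 groups of 3 mice. All mice were males of 9 to 12 weeks on a mixed SV129/C57BL/6 background, wild-type or PPARα-null, the latter lacking functional PPARα in every cell of the body. Control mice of each strain ate the control diet and stayed at room temperature. HS mice ate the control diet and were heated at 42 °C for 40 min, WY mice ate a diet with 500 ppm WY for 1 week without heating, and WY+HS mice received the WY diet and then HS. The labels list sampling at 4 h, 24 h and 3 days after HS without assigning arrays to a time, whereas the methods of the study place the arrays at 4 h. Mice are numbered 1 to 12 in wild-type (control 1 to 3, HS 4 to 6, WY 7 to 9, WY+HS 10 to 12) and 13 to 24 in PPARα-null, in the same order of treatments.

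Values are quantile-normalized probe set intensities raised to a floor of 15.74, so that lower values count as equal, and changes are differences of mean log2 intensity. Intensities of different probe sets are not compared with each other. Replicate arrays of a group correlated between 0.95 and 0.9824 over all probe sets. The summed intensity of 7 hepatocyte markers was 28486 to 33244 over the arrays, and the 3 bile duct markers on the array (Epcam, Krt19 and Krt7) were at the floor on all 24. The summed intensity of 9 striated muscle markers was 1194 in wild-type control mouse 1, 1082 in PPARα-null HS mouse 16 and 983 in PPARα-null HS mouse 17, against 203 to 344 in the other 21 mice. The actin gene Acta1 made up 662, 592 and 478 of these sums and was at most 29.7 elsewhere, whereas the muscle creatine kinase gene Ckm was at the floor in mice 16 and 17, against 35.8 to 59.8 in the PPARα-null controls. The 3 PPARα-null HS mice also had the highest sums of their strain for stellate cell markers (689, 776 and 626, against at most 576), and their endothelial sums (828, 923 and 1168) were above those of the PPARα-null controls (640 to 809) and overlapped those of the WY+HS mice (772 to 879). Changes of named genes that rest on these mice are given with and without the 3 arrays of high muscle signal where the arrays decide the call. In whole liver, fewer cells of a type and less RNA per cell cannot be told apart.

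Of 25 member genes with a promoter entry, 5, all synthetases, carried the core of an amino acid response element in the promoter, and 1 site of each is shown here because 3 of these genes, Gars, Iars and Tars, passed a comparison between groups. Aars varied over the groups by an F test without passing a comparison, and Yars did neither. Promoters run from 250 bases before to 50 bases after the start of a transcript and are from RefSeq, mouse build GRCm38.p6, with entries for 12 synthetases, 9 initiation factors and 4 elongation factors. Each line gives 30 bases of the strand of the gene, 5′ to 3′, and capitals mark TGATGNAAN as it reads there, forward or as its reverse complement.
Gars, chr6:55037960-55037989, plus strand: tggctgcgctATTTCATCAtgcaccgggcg
Iars, chr13:49682126-49682155, plus strand: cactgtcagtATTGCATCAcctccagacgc
Tars, chr15:11399655-11399684, minus strand: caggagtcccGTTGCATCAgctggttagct
Aars, chr8:111033840-111033869, plus strand: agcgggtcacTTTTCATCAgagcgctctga
Yars, chr4:129189896-129189925, plus strand: cgagctcagcTGATGCAACccgacgggact

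The core began 31 bases before the start in Gars and 16 before it in Tars, while the sites shown for Iars, Yars and Aars began at bases 7, 4 and 9 of the transcript. TGATGNAAN, searched on both strands, was present in 5 of the 25 member genes (20%), in 5 of 12 synthetases, in 0 of 9 initiation factors and in 0 of 4 elongation factors. A gene can have several promoter entries. Counted by entry, it was in 5 of 34 promoters of the listed genes, against 3.95% of 32851 RefSeq promoters of the same length. The E-box CACGTG, which reads the same on both strands, was present in 9 of the 25 genes (36%). These were Aars, Eef2, Eif3a, Eif4a1, Eif4e, Eif5a, Farsb, Iars and Tars. By entry it was in 11 of 34 promoters of the listed genes, against 7.15% of all promoters. No member promoter held the heat shock element (GAA and TTC in alternation, 3 units spaced by 2 bases; 0.603% of all promoters) or the PPAR response element of the DR1 kind (AGGTCA repeated after a gap of 1 base; 0.0396%), on either strand. These are matches of letters in a short window and not measured binding sites.

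Of the 37 members, 16 varied over the 8 groups by the moderated F test of limma at an adjusted p under 0.05, against 29.7% of all genes. These were 10 of 19 synthetases (Aars, Cars, Eprs, Farsb, Gars, Iars, Lars, Nars, Tars and Vars), 4 of 13 initiation factors (Eif2s2, Eif3a, Eif4a2 and Eif4g2) and 2 of 5 elongation factors (Eef1a1 and Eef2). Among genes with a mean intensity of at least 100, 8 of 19 members varied, against 59.1% of all such genes. Without PPARα-null HS mouse 17 the count of varying members was 8, without mouse 16 it was 9, and without the 3 arrays of high muscle signal it was 9. At least 1 of the 13 comparisons was passed by 13 of 37 members, 8 synthetases and 5 factors, and by 2645 of 8251 genes, while 24 members passed none. In wild-type livers 17 of 19 synthetases had a higher mean after HS, 10 after WY and 15 after WY+HS than in controls, and in PPARα-null livers the changes that passed followed HS alone. Of all 8251 genes in wild-type livers, 3024 were higher and 3120 lower after HS, 3063 and 3188 after WY, and 3171 and 3238 after WY+HS.

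**Figure D1:**
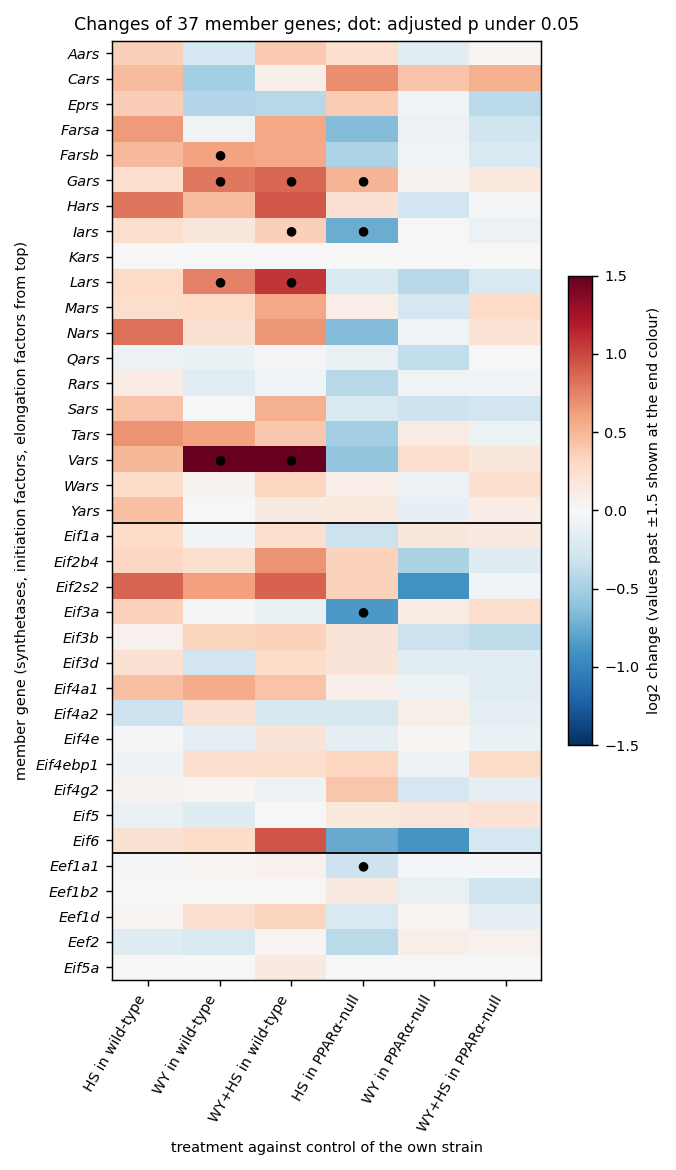
Log2 change of each of the 37 member genes (rows) for the 6 treatments against the control of the own strain (columns), in 3 against 3 mice; red is higher and blue is lower, and a dot marks a limma adjusted p under 0.05. Gars, Lars and Vars carry dots for WY and WY+HS in wild-type mice, whereas Iars, Eif3a and Eef1a1 were lower after HS in PPARα-null mice.

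WY raised 4 of the 37 members in wild-type livers and lowered none (10.8%, against 12.8% of all genes in either direction and 6.68% up), and all 4 were synthetases. These were Gars, Lars, Vars and Farsb, the enzymes for glycine, leucine and valine and the beta subunit of the enzyme for phenylalanine. Over all 37 members the median log2 change was 0.03. The summed intensity of 6 endothelial markers was 464 to 541 in these WY mice, against 763 to 936 in their controls. The hepatocyte sums were 28486 to 29912 against 31564 to 31998, and the exocrine pancreas sums 118 to 169 against 408 to 447. For 6 B and T cell markers, 4 of them at the floor throughout, they were 138 to 145 against 191 to 237. The Kupffer cell, stellate cell, neutrophil, red cell and muscle sums overlapped. The part of these sums in the results was not tested.

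Gars had intensities of 94.9, 93.1 and 85.5 in the wild-type controls and 146, 161 and 168 in the WY mice. Every WY mouse was above every control, and Gars rose 1.74-fold (log2 change 0.80, SE 0.14, limma adjusted p = 0.00108). In PPARα-null mice Gars read 97.2, 94.5 and 111 in the controls and 101, 106 and 105 after WY. Those groups overlapped, with a log2 difference of 0.05 (95% interval -0.25 to 0.35), and the difference between the strains in the response to WY was -0.74 (SE 0.20, limma adjusted p = 0.0382). With Lars, Gars made 2 of 37 members that differed in this response, both lower in PPARα-null mice (5.41%, against 6.23% of all genes in either direction and 3.55% lower). The Gars call was lost on leaving out any of 10 arrays in turn, among them each of the wild-type controls.

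Lars was at 53.1, 76.1 and 52.5 in the wild-type controls, at 106, 81.4 and 119 after WY and at 124, 117 and 137 after WY+HS. The treated mice were all above the controls, mouse 8 by a narrow margin over mouse 2. The rise was 1.69-fold after WY (log2 0.76, SE 0.15, limma adjusted p = 0.00213) and 2.10-fold after WY+HS (log2 1.07, adjusted p = 8.43e-05). The PPARα-null mice read 75.8, 75.5 and 76.8 in the controls and 61.0, 47.8 and 63.4 after WY, all lower, a log2 difference of -0.42 that did not pass (limma adjusted p = 1). The strains differed in this response by -1.18 (SE 0.21, limma adjusted p = 0.00211), a call that held with each array left out in turn.

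Vars showed the widest change of the members after WY, with part of its range at the floor. The wild-type controls read 15.7 (the floor), 28.1 and 44.1, the WY mice 173, 139 and 161 and the WY+HS mice 121, 111 and 194. Treated and control mice were far apart, with rises of 5.82-fold after WY (log2 2.54, SE 0.62, limma adjusted p = 0.0125) and 5.11-fold after WY+HS (log2 2.35, adjusted p = 0.0206). The size depends on the floor, with log2 changes of 2.08 to 3.33 after WY and 1.89 to 3.14 after WY+HS under the other floors tried. Without wild-type control mouse 1, the mouse at the floor and one of those with high muscle signal, neither call held, nor did either with a lower floor, and the second was also lost without mouse 2 or mouse 12. In the PPARα-null mice Vars was at the floor in 8 of 12 mice and reached at most 75.7. The difference between strains in the WY response was -2.29 (SE 0.88) and did not pass (limma adjusted p = 0.191).

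Farsb read 48.3, 65.1 and 52.1 in wild-type controls and 98.8, 73.0 and 79.6 after WY, with no overlap. Its rise of 1.52-fold (log2 0.60, SE 0.18, limma adjusted p = 0.0345) was lost without mouse 1, 3, 7 or 9 and without the arrays of high muscle signal (log2 0.51, adjusted p = 0.136). Tars, the threonine enzyme, was at 104, 130 and 136 in the controls and at 192, 170 and 197 after WY, also apart, but its log2 change of 0.60 (SE 0.21) did not pass (limma adjusted p = 0.0817). In PPARα-null livers 0 of 37 members passed after WY (0.0121% of all genes). At an unadjusted p under 0.05 were 3, Lars, Eif2s2 and Eif6, all lower, against 305 of 8251 genes, 174 of them lower.

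**Figure D2:**
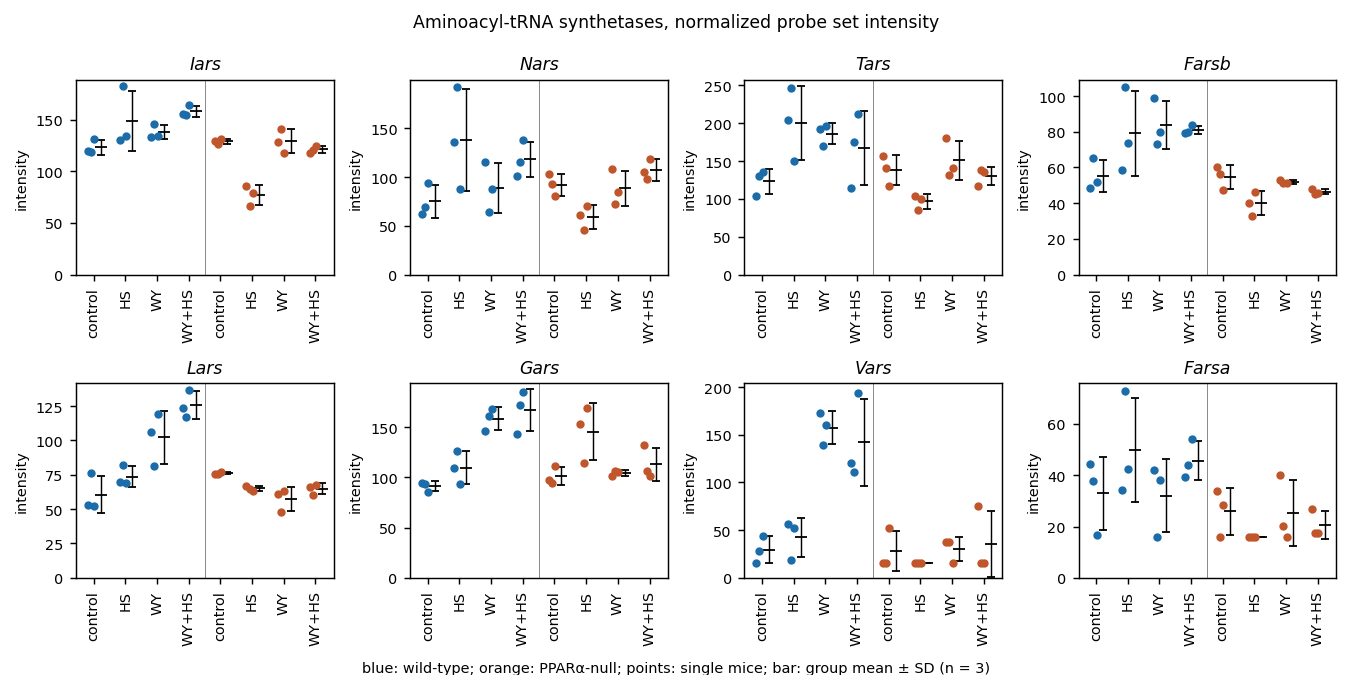
Normalized intensity (vertical axis, arbitrary units) of the 8 synthetases that passed a comparison, with 1 point for each mouse and the mean ± SD of 3 mice beside it, wild-type in blue and PPARα-null in orange. Gars, Lars and Vars stand high in the wild-type WY and WY+HS groups, and Iars, Nars and Tars stand low in the PPARα-null HS group.

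WY+HS against control in wild-type livers gave the same number, 4 of 37 members up and 0 down (12.6% of all genes in either direction and 6.18% up). Gars was at 144, 172 and 185 and rose 1.82-fold over the controls (log2 0.87, limma adjusted p = 0.000444). Lars and Vars are given above. Iars, the isoleucine enzyme, was at 120, 118 and 132 in the controls and at 156, 154 and 164 after WY+HS, groups that did not overlap. Its rise was 1.28-fold (log2 0.36, limma adjusted p = 0.0396) and was lost without any 1 of 6 arrays, the 3 WY+HS arrays among them, and without the arrays of high muscle signal (log2 0.34, adjusted p = 0.0964). The members as a whole had a median log2 change of 0.32, with 28 higher and 7 lower. At an unadjusted p under 0.05 were 13, all higher, against 1958 of 8251 genes, 949 of them higher. The 3 mice were unequal: the median synthetase lay 0.19, 0.51 and 0.61 above the control mean on the log2 scale in mice 10, 11 and 12.

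HS alone in wild-type livers changed 0 of 37 members by limma (0.0485% of all genes). At an unadjusted p under 0.05 were 9 members, 8 higher and 1, Eif4a2, lower. Of all 8251 genes 500 were, 246 higher and 254 lower. The methods' test, run here on the normalized, floored values as a plain analysis of variance followed by the Scheffe test, also called 0 members. The paper reports that HS raised tRNA synthetase genes in wild-type mice. It used gene set enrichment, a measure over a set and not of single genes. The values leaned upward: 27 members were higher and 7 lower, with a median log2 change of 0.26, and 17 of 19 synthetases were higher with a median of 0.37, where the median over all genes was 0. Nars, the asparagine enzyme, read 62.1, 69.2 and 94.0 in the controls and 135, 192 and 87.3 after HS, and Tars 204, 246 and 149 after HS against at most 136 in the controls. HS mouse 5 was the highest of the 3 in both, and Nars of mouse 6 lay within the control range. Their log2 changes were 0.83 (SE 0.27) for Nars and 0.68 (SE 0.21) for Tars, with limma adjusted p of 0.577 and 0.551. The median synthetase stood 0.53 above controls in mouse 5 and 0.23 and 0.13 in mice 4 and 6. Among the wild-type controls themselves it lay at -0.17, 0.08 and 0 in mice 1, 2 and 3. Mouse 5 also had the lowest Ppara intensity of the wild-type mice, 181 against at least 274 in the others. That value lies within the range of the PPARα-null mice (103 to 210.2).

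**Figure D3:**
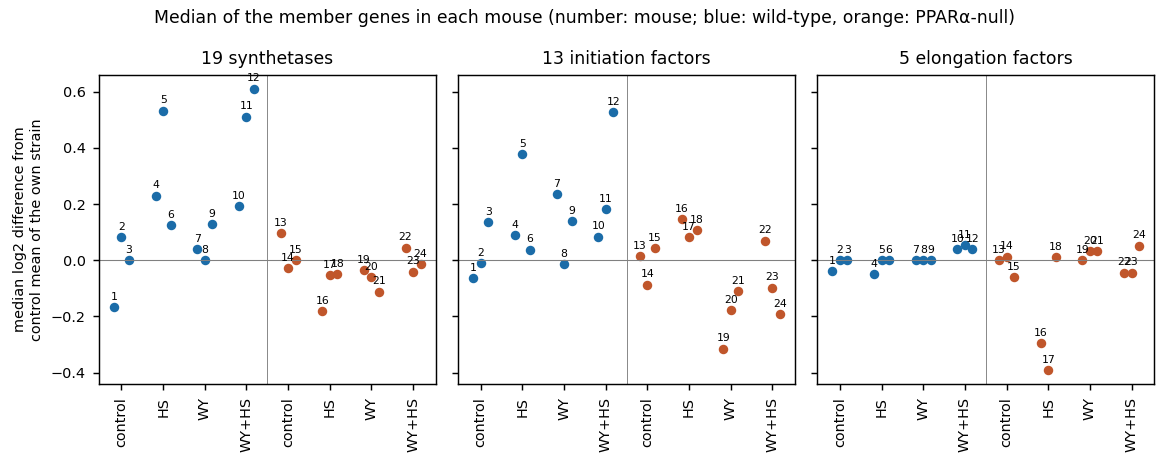
Median log2 difference (vertical axis) of the 19 synthetases, 13 initiation factors and 5 elongation factors from the mean of the control mice of that strain, with 1 numbered point for each mouse, wild-type in blue and PPARα-null in orange. Wild-type HS mouse 5 and WY+HS mice 11 and 12 stand above 0.5 for synthetases, and PPARα-null HS mice 16 and 17, but not 18, stand below the rest for elongation factors.

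In PPARα-null livers HS changed 4 of 37 members (10.8%, against 7.93% of all genes, of which 3.44% were up and 4.48% down), with Gars higher and Iars, Eif3a and Eef1a1 lower. Of genes with a mean intensity of at least 100, among them 19 of the members, 16.5% passed. The median log2 change over all members was 0, with 17 higher and 18 lower. Among the synthetases 8 were higher and 10 lower. Marker sums of other cells were above those of the PPARα-null controls in all 3 heated mice. They were 605 to 709 against 389 to 588 for 7 Kupffer cell and macrophage markers (Adgre1 at the floor throughout). For 6 stellate cell markers they were 626 to 776 against 422 to 478. For 6 neutrophil markers (Ngp at the floor throughout) they were 216 to 264 against 157 to 185. S100a8 and S100a9 of the neutrophil list and Cd14 and Lyz2 of the Kupffer cell list were above every control in all 3 heated mice. No heated mouse exceeded the highest control for the neutrophil genes Elane, Ltf and Mpo. Clec4f and Csf1r of the Kupffer cell list overlapped the controls, and Cd68 was at the floor in both groups. The part of these sums in the results was not tested. Of the hepatocyte markers, the transcription factor gene Hnf4a read 80.3, 228 and 77.5 in the PPARα-null controls and 40.7, 29.7 and 29.9 in the heated mice (log2 -1.76, limma adjusted p = 0.0119), which was not tested as a part of the results either.

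Iars fell most clearly among the synthetases. The PPARα-null controls read 129, 126 and 131 and the HS mice 86.1, 66.5 and 79.2, groups far apart. The fall was 1.68-fold (log2 change -0.75, SE 0.11, limma adjusted p = 0.000467). Without the 3 arrays of high muscle signal, which leaves 1 heated PPARα-null mouse, the log2 change was -0.70. In wild-type mice the controls read 120, 118 and 132 and the HS mice 130, 182 and 134, with overlap and a log2 change of 0.26 (95% interval 0.03 to 0.48, limma adjusted p = 0.797). The responses of the strains differed by -1.0 (SE 0.15, limma adjusted p = 0.00247), and Iars was the 1 member of 37 to pass that test (2.7%, against 1.87% of all genes in either direction and 1.09% in this one). The call held with each array left out in turn. It was lost in a fit of only the groups compared and when the arrays were not scaled to each other. Without the 3 arrays of high muscle signal, with 1 heated PPARα-null mouse left, the difference was -0.94.

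Nars, Tars, Farsb and Farsa had means that, like those of Iars, were higher in wild-type and lower in PPARα-null mice after HS, but passed in neither strain. Nars differed between strains in its response by -1.49 (SE 0.38, limma adjusted p = 0.0597), Tars by -1.19 (SE 0.29, adjusted p = 0.0543) and Farsb by -0.95 (SE 0.25, adjusted p = 0.0685). These 3 passed, with Eif3a, Eef1a1 and Eef2 beside Iars, when PPARα-null HS mouse 18 was left out, which raised the count from 1 to 7 and kept only mice 16 and 17, both of high muscle signal, in that group. Without the 3 arrays of high muscle signal, which leaves mouse 18 alone in that group, the differences for Nars, Tars and Farsb were -1.09, -1.02 and -0.63. They did not pass. Over the 19 synthetases, the change was more negative in the PPARα-null strain for 15 and less negative for 3, with a median difference of -0.53 on the log2 scale. Over all 37 members the median was -0.22. At an unadjusted p under 0.05 were 8, all of them negative, against 1189 of 8251 genes, 661 of them negative.

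Gars went against these genes. Its PPARα-null controls read 97.2, 94.5 and 111 and the HS mice 153, 114 and 169, all above the controls, mouse 17 barely so. The rise was 1.43-fold (log2 0.51, SE 0.14, limma adjusted p = 0.0371), a call lost without mouse 13, 14, 16 or 18. It was also lost without the arrays of high muscle signal, where the change in mouse 18 alone was 0.75 on the log2 scale. In wild-type mice HS gave 110, 127 and 93.0 against 94.9, 93.1 and 85.5, a log2 difference of 0.26 (95% interval -0.04 to 0.56), and the strains did not pass the test of a difference for Gars (0.25, SE 0.20, limma adjusted p = 0.76).

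**Figure D4:**
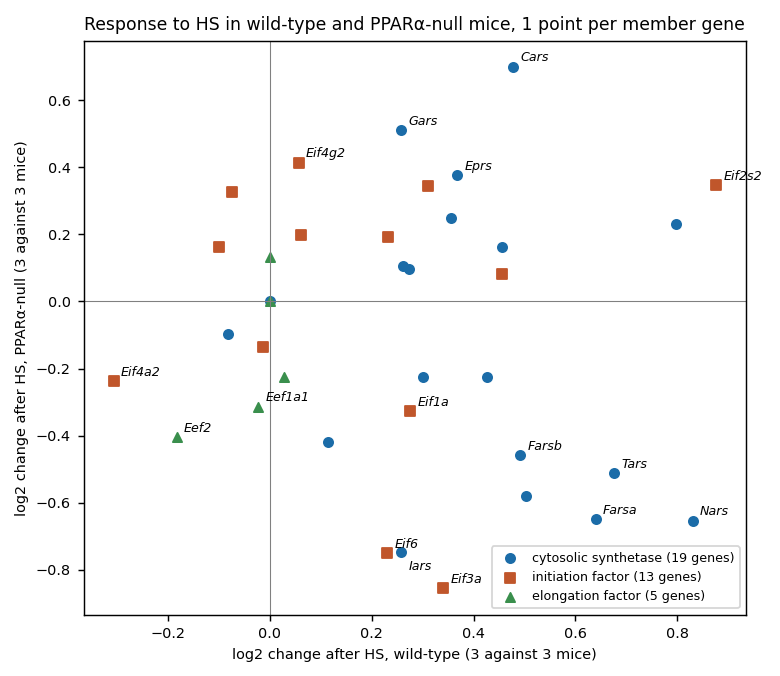
Log2 change after HS in wild-type mice (horizontal axis) and in PPARα-null mice (vertical axis), 1 point for each of the 37 members, each axis from 3 against 3 mice. Iars, Nars, Tars, Farsb, Farsa and Eif3a lie in the lower right, higher in wild-type and lower in PPARα-null mice, whereas Gars, Cars and Eprs were higher in both.

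Set side by side after HS, the strains differed in 9 of 37 members (24.3%, against 16.8% of all genes), 8 of them lower in PPARα-null mice (8.9% of all genes) and 1 higher (7.87%). Of genes with a mean intensity of at least 100, among them 19 of the members, 32.3% passed. The lower ones were 5 synthetases, Iars, Farsb, Tars, Nars and Farsa, and Eif3a, Eif1a and Eef1a1, and the higher one was Eif4g2. In the controls 0 of 37 differed between strains (0.921% of all genes), and 2, Lars and Mars, had an unadjusted p under 0.05 (927 of 8251 genes).

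Tars in heated mice was at 204, 246 and 149 in wild-type livers and at 104, 85.9 and 99.8 in PPARα-null ones, every PPARα-null mouse below every wild-type mouse and 2.03-fold lower on average (log2 -1.02, SE 0.21, limma adjusted p = 0.00262). Nars was at 135, 192 and 87.3 against 60.7, 46.2 and 70.3, again apart, and was 2.26-fold lower (log2 -1.18, adjusted p = 0.00602). The beta subunit gene Farsb, at 58.5, 105 and 73.8 against 40.2, 33.1 and 46.5, was 1.94-fold lower (log2 -0.96, SE 0.18, limma adjusted p = 0.0012). Its partner Farsa, the alpha subunit of the same enzyme, read 34.2, 72.8 and 42.6 in wild-type mice and was at the floor in all 3 PPARα-null mice. At the floor of 15.74 that makes Farsa at least 3.01-fold lower (limma adjusted p = 0.0237), but the bound moves with the floor: at a floor of 33.93 the log2 difference was -0.48 and did not pass (adjusted p = 0.127). The Farsa call was also lost without mouse 5, 16 or 17. Iars, at 130, 182 and 134 against 86.1, 66.5 and 79.2, was 1.92-fold lower (log2 -0.94, adjusted p = 2.2e-05).

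Without the 3 arrays of high muscle signal, which leaves 1 heated PPARα-null mouse assumed to vary like the other groups, Iars alone of the 9 still passed (log2 -0.90, limma adjusted p = 0.00226). Tars, Nars and Farsb were then at -0.97, -0.90 and -0.73, with adjusted p of 0.105, 0.273 and 0.131. With 1 array left out at a time the 9 became 6 to 10. Without wild-type HS mouse 5, the one with low Ppara, the count was 8, with Farsa and Eif1a lost and Gars added. A second probe set of Wars, the tryptophan enzyme, was also lower in heated PPARα-null mice (log2 -2.02, limma adjusted p = 0.00291), whereas the brightest one was not called, at 119, 146 and 106 against 89.6, 122 and 90.0. The third Wars probe set, at the floor on 14 arrays, gave a log2 difference of 0.08 and was not called.

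Among the changes of initiation factors that passed, those of Eif3a were the largest. It encodes the large scaffold subunit of eIF3, the complex that holds the small ribosomal subunit ready for mRNA. PPARα-null controls read 96.7, 111 and 96.7 and HS mice 41.1, 52.5 and 81.7, lower in all 3 though mouse 18 fell least. The fall was 1.81-fold (log2 -0.86, SE 0.24, limma adjusted p = 0.0418) and was lost in 14 of the 24 fits that left out 1 array. Heated wild-type mice were at 145, 152 and 115, so that after HS Eif3a was 2.43-fold lower in the PPARα-null strain (log2 -1.28, limma adjusted p = 0.00158). Without the 3 arrays of high muscle signal the fall after HS was 0.31 on the log2 scale and the difference between strains -0.74, neither of which passed.

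Eif4g2, which encodes a relative of the scaffold eIF4G that lacks the cap-complex binding region and serves cap-independent initiation, was the one member higher in heated PPARα-null mice. They read 117, 135 and 102, against 75.1, 90.4 and 68.2 in heated wild-type mice, with no overlap and a ratio of 1.51 (log2 0.60, SE 0.15, limma adjusted p = 0.0106). The PPARα-null controls, at 95.9, 78.0 and 91.0, were below all 3, but that step did not pass (log2 0.41, limma adjusted p = 0.115). Eif1a, whose product helps the ribosome scan for the start codon, read 124, 120 and 93.3 in heated wild-type and 80.3, 62.5 and 49.6 in heated PPARα-null mice, and was 1.77-fold lower in the latter (log2 -0.83, limma adjusted p = 0.0255), although it did not vary by the F test (adjusted p = 0.182). Its other probe set gave a log2 difference of -0.15 (limma adjusted p = 1), and the call was lost with the mean of the 2 probe sets.

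Eef1a1 and Eef2 encode the main carrier of charged tRNA to the ribosome and the translocase, and both were among the bright transcripts. Eef1a1 read 5239, 5176 and 4973 in PPARα-null controls and 3853, 3703 and 4916 after HS. Mice 16 and 17 were low and mouse 18 was just under the controls, which gave a 1.24-fold fall (log2 -0.31, SE 0.08, limma adjusted p = 0.0184). Eef2 had the same shape, with 1824, 2011 and 1793 in the controls and 1216, 1231 and 1889 after HS, mouse 18 lying within the control range, and did not pass (log2 -0.41, limma adjusted p = 0.0549). Mice 16 and 17 are those with high muscle signal, and without the 3 such arrays the Eef1a1 change was -0.06. Wild-type control mouse 1, with as much muscle signal, had an Eef1a1 intensity of 5041, against 5176 and 5318 in the other wild-type controls. Eef1a2, the form of the same factor made in muscle and neurons, read 514 and 530.0 in mice 16 and 17 and 354 in wild-type control mouse 1, against 184 to 420.0 elsewhere.

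**Figure D5:**
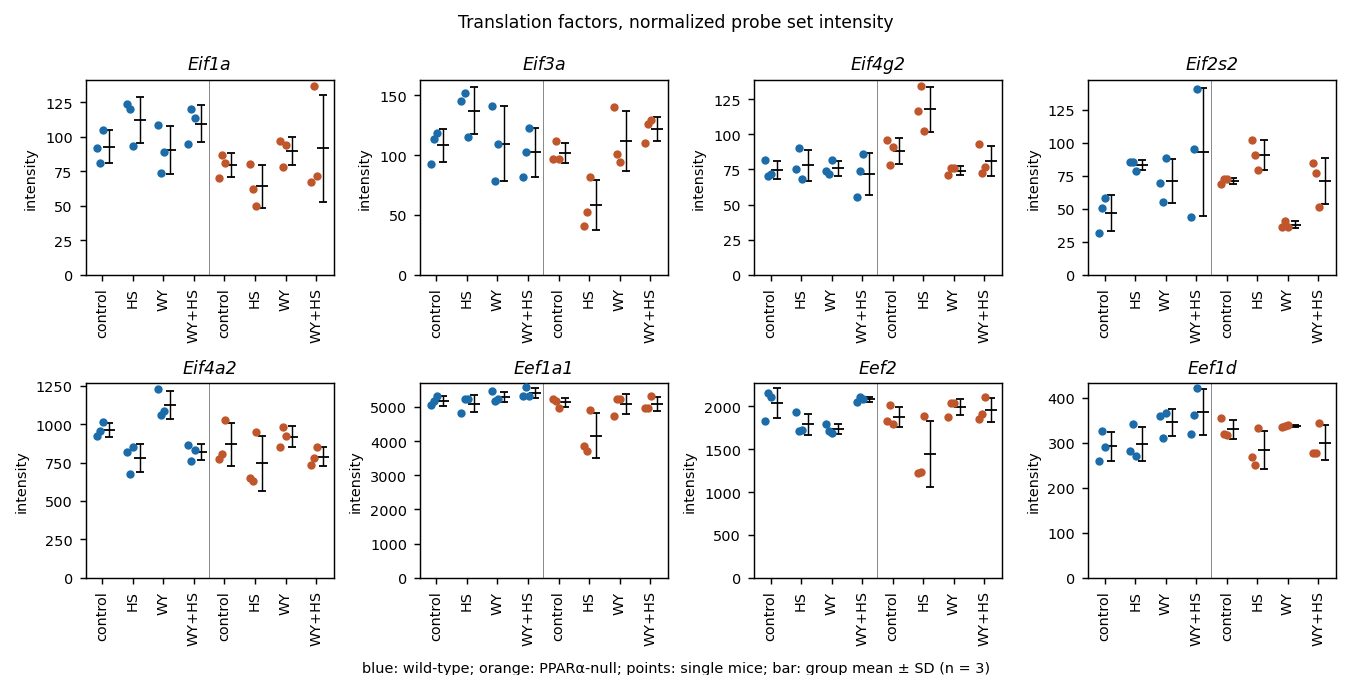
Normalized intensity (vertical axis, arbitrary units, from 0) of 8 translation factors, with 1 point for each mouse and the mean ± SD of 3 mice beside it, wild-type in blue and PPARα-null in orange. Eif3a, Eef1a1 and Eef2 are low in the PPARα-null HS group, where for Eef1a1 and Eef2 mouse 18 stays near the controls, and Eif4g2 is high there.

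In PPARα-null livers the WY+HS mice were also set against the mice given HS alone. WY+HS against HS differed in 6 of 37 members (16.2%, against 12.7% of all genes), 5 higher (7.03% of all genes) and 1 lower (5.62%), and this comparison uses the same HS mice as the ones above. Of genes with a mean intensity of at least 100, among them 19 of the members, 25.3% passed. Iars read 118, 121 and 125 after WY+HS, against 86.1, 66.5 and 79.2 after HS, 1.58-fold higher (log2 0.66, SE 0.11, limma adjusted p = 0.00078). Eif3a, at 110, 126 and 129 against 41.1, 52.5 and 81.7, was 2.17-fold higher (log2 1.12, limma adjusted p = 0.00671), and Nars, at 105, 97.5 and 119 against 60.7, 46.2 and 70.3, was 1.83-fold higher (log2 0.88, adjusted p = 0.0442). None of these 3 overlapped between the groups, and the Nars call was lost without any 1 of 12 arrays.

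Eef1a1 (4973, 4973 and 5318 after WY+HS) was 1.23-fold and Eef2 (1850, 1906 and 2110) 1.38-fold above HS alone, with limma adjusted p of 0.0157 and 0.0202. For Eef2 mouse 18 overlapped the WY+HS range. Eif4g2, at 92.9, 72.7 and 77.0, was 1.46-fold lower than after HS (log2 -0.54, limma adjusted p = 0.0248). Without the 3 arrays of high muscle signal, mouse 18 alone stood for HS. The log2 differences were then 0.61 for Iars, 0.57 for Eif3a, 0.60 for Nars, 0.05 for Eef1a1, 0.05 for Eef2 and -0.35 for Eif4g2. Against their own controls, the PPARα-null WY+HS mice had 0 of 37 members called (0.0242% of all genes) and 0 at an unadjusted p under 0.05 (465 of 8251 genes).

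In wild-type livers WY+HS against HS differed in 2 of 37 members, both up (5.41%, against 11.4% of all genes in either direction and 5.68% up). Gars was 1.53-fold higher (log2 0.61, limma adjusted p = 0.00901) and Lars 1.71-fold higher (log2 0.77, adjusted p = 0.00192). Eprs, the fused glutamate and proline enzyme, was lower at 43.1, 65.7 and 77.3 against 87.5, 141 and 90.2, with no overlap, but did not pass (log2 -0.78, limma adjusted p = 0.071). HS on top of WY against WY alone gave 0 of 37 (0.485% of all genes) and, at an unadjusted p under 0.05 (765 of 8251 genes), 5 members. Of these Aars, the alanine enzyme, read 210, 191 and 201 after WY and 313, 309 and 326 after WY+HS, all higher, with a log2 difference of 0.66 (SE 0.16) and a limma adjusted p of 0.0961.

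Cars, the cysteine enzyme, varied by the F test (adjusted p = 0.0189) and passed no single comparison. PPARα-null mice of all treatments read from 37.8 to 96.2 and wild-type mice from the floor to 71.8, and in heated mice the wild-type values were 20.8, 35.8 and 55.1 against 94.4, 96.2 and 63.7. The strains were apart there, with a log2 difference of 1.27 (SE 0.54, limma adjusted p = 0.14). Eif2s2, the beta subunit of eIF2, was at 31.7, 50.2 and 58.3 in wild-type controls and at 85.4, 85.6 and 78.4 after HS, all higher, while in PPARα-null mice WY gave 36.4, 41.0 and 36.2 against 68.5, 72.4 and 72.2, all lower. Its changes of 0.88 and -0.91 on the log2 scale did not pass, and its other probe set gave 0.22 and -1.31, which did not pass either. Eif4a2, an RNA helicase of the cap complex, was at 921, 956 and 1013 in wild-type controls and 816, 679 and 851 after HS, lower in each mouse (log2 -0.31), which did not pass either.

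Of the remaining members, Kars and Eif5a were at the floor on 23 of 24 arrays, Eef1b2 on 18, Sars on 15 and Eif4e on 14, and their changes carry little information. In all, 28 members were never at the floor, 9 were there on some arrays and 0 on all. The others, Hars, Mars, Qars, Rars, Wars and Yars among synthetases, Eif2b4, Eif3b, Eif3d, Eif4a1, Eif4ebp1, Eif5 and Eif6 among initiation factors and Eef1d, passed no comparison by their brightest probe set. Yars was closest to a call for HS in wild-type mice, at 144, 180.1 and 147 against 97.6, 149.8 and 101 (log2 0.46, limma adjusted p = 0.548). It became the 1 called member of that comparison when wild-type control mouse 2 was left out. The other Yars probe set did not rise, at 67.3, 50.25 and 94.77 after HS against 82.92, 54.45 and 76.25 in the controls (log2 -0.03).

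Related genes outside the 41 give the surroundings. Gspt1, whose product eRF3a works in the release of finished proteins, fell in the PPARα-null HS mice from 201, 200.5 and 153 to 83.0, 79.3 and 97.4, mouse 18 included. The fall was 2.13-fold (log2 -1.09, SE 0.14, limma adjusted p = 0.000234) and the response differed between strains (-1.27, adjusted p = 0.00434). After WY+HS Gspt1 was 2.55-fold above HS alone (limma adjusted p = 2.32e-05). Of the 12 elongation, termination and recycling genes, 0 rose and 3 fell after HS in PPARα-null mice (4.48% of all genes fell): Gspt1, the mitochondrial elongation factor Tufm (log2 -0.59, adjusted p = 0.0218) and Abce1, which splits ribosomes for reuse (log2 -0.70, adjusted p = 0.0498). On leaving out the 3 arrays of high muscle signal these changes were -0.91, -0.34 and -0.72 and none passed (adjusted p = 0.0522, 0.729 and 0.5), nor did the Gspt1 difference between strains (-1.11, adjusted p = 0.0957), whereas Gspt1 still passed for WY+HS against HS (log2 1.17, adjusted p = 0.00862).

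Of 5 mitochondrial synthetases on the array (17 listed), Fars2 fell after HS in PPARα-null mice, from 135, 146 and 122 to 79.7, 84.5 and 96.1 (log2 -0.63, limma adjusted p = 0.000494). The other 4 did not pass, and 4.48% of all genes fell. Under WY+HS against HS Fars2 and Iars2 were higher and Rars2 lower (log2 0.60, 1.07 and -0.62), 3 of 5 against 12.7% of all genes. None of these 4 calls held without the 3 arrays of high muscle signal, where Fars2 was at -0.48 after HS (adjusted p = 0.0891). The 2 scaffold genes of the multisynthetase complex on the array passed no comparison.

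Of 24 other initiation factor genes, WY in wild-type mice raised 1 and lowered 2 (12.8% of all genes passed, 6.68% up). Eif3m, an eIF3 subunit, rose from 299, 265 and 284 to 434, 415 and 438 (log2 0.60, SE 0.06, limma adjusted p = 4.89e-06), and in PPARα-null mice stayed at 311, 326 and 303 against 341, 306 and 312, with a difference between strains of -0.63 (adjusted p = 0.000309). Eif4ebp2, which holds the cap-binding factor eIF4E inactive, fell from 1544, 1742 and 1620 to 952, 1086 and 1050 (log2 -0.67, limma adjusted p = 4.3e-05), and to 887, 796 and 887 after WY+HS. Eif2b1 was the other that was lowered (log2 -0.55, adjusted p = 0.0407), a call lost without the arrays of high muscle signal (adjusted p = 0.143). After HS, 1 of the 24 was higher and 5 lower in PPARα-null than in wild-type mice, beside 2 higher and 4 lower of the 12 elongation, termination and recycling genes and 0 higher and 2 lower of the 5 mitochondrial synthetases, where 7.87% of all genes were higher and 8.9% lower.

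The amino acid response list held 21 genes on the array, and 1 rose after WY (6.68% of all genes), 4 rose after WY+HS (6.18%) and 0 were called after HS (0.0485%) in wild-type mice. Atf3, a stress-induced transcription factor, went from 35.9, 24.7 and 18.1 in the controls to 650.4, 925 and 483 after WY+HS, 26.2-fold (limma adjusted p = 1.17e-07), while wild-type WY mice were at 41.6, 41.1 and 35.7. The serine enzyme Psph and the transporter subunit Slc3a2 rose with it (log2 1.17 and 0.47, adjusted p = 0.00511 and 0.0107). Atf4 itself passed in 1 of the 13 comparisons, HS in PPARα-null mice, where it rose from 257, 335 and 339 to 614, 573 and 412 (log2 0.77, limma adjusted p = 0.021), and was the 1 gene of the list called there (3.44% of all genes rose). With the 3 arrays of high muscle signal left out the change was 0.42 (adjusted p = 0.858). Asns, asparagine synthetase, was 3.23-fold higher in heated PPARα-null than in heated wild-type mice (limma adjusted p = 0.00972), with 631, 642 and 545 against 179, 241 and 151, while the controls read 426, 449 and 351 against 253, 240.3 and 101 and did not pass. Without the same 3 arrays the difference in heated mice was 1.54 on the log2 scale and did not pass (adjusted p = 0.235).

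Of 9 TOR pathway genes, Mtor rose after WY in wild-type mice from 178, 155 and 147 to 219, 264 and 287 (log2 0.68, limma adjusted p = 0.00899). Akt1 and Akt2 fell there, where 12.8% of all genes passed. Tsc2, the brake on TOR, passed after HS in PPARα-null mice, as did 7.93% of all genes. It fell from 90.2, 115 and 92.4 to 45.8, 38.2 and 61.2 (log2 -1.05, limma adjusted p = 0.00183). That fall was 0.69 without the 3 arrays of high muscle signal, on the log2 scale, and did not pass (adjusted p = 0.259). Of 7 eIF2 kinase and phosphatase genes, Eif2ak2 fell after WY+HS in wild-type mice (log2 -0.83, limma adjusted p = 0.0232), where 12.6% of all genes passed. Without the arrays of high muscle signal its change was -0.61 and did not pass. Eif2ak3 passed as higher in heated PPARα-null than in heated wild-type mice (limma adjusted p = 0.0123), where 16.8% of all genes passed. But it was near the floor, at 17.8, 21.7 and 23.5 against the floor in 2 wild-type mice and 15.9 in the other, and no fold is given. The other 5 passed no comparison.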

How the data were processed

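The deposited values are linear, background-subtracted probe set intensities of 24 U74Av2 arrays that the authors made with GeneChip Operating Software and analysed in Rosetta Resolver; no source used here gives the summary method. Array medians ran from 15.2 to 40.5, any scaling before deposit is not stated, and 24.1% of the 298128 values were at or below 0. Intensities were quantile-normalized, raised to a floor of 15.74 (the size of the 10th percentile), at which 42.9% of the values lay, and log2-transformed. limma 3.58.1 in R 4.3.3 fitted 1 mean for each of the 8 groups over all 24 arrays (16 residual degrees of freedom), and Benjamini-Hochberg adjustment ran over 12422 probe sets within each of 13 comparisons, two-sided, at 0.05. The script was tested on simulated data. Each array is 1 mouse, so the 3 arrays of a group limit the precision. Genes were named from GEO's platform annotation, promoters from RefSeq; 1 promoter site is not reported here. Named in full are members that passed a comparison, or the F test; from each related list, up to 3 genes past the threshold with the smallest adjusted p in a comparison. Eef1a2 was added after its values were seen. The members, lists and tests were chosen with earlier results of these data known. Alternatives tried were another scaling, other floors, a filter on dim probe sets, a fit of only the groups compared, the methods' test, the mean of a gene's probe sets, array weights and leaving out each array. Further settings, no scaling and leaving out 3 arrays of high muscle signal, were chosen after seeing the data.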

Additional observations from a re-analysis of the deposited data

Results flagged for a closer look

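The responses of 3 synthetases differed between wild-type and PPARα-null mice by limma's test of the difference itself. For Iars the response to HS differed by a log2 value of -1.0 (adjusted p = 0.00247): 3 of 3 heated PPARα-null mice were below every control of their strain, while in wild-type 2 of 3 heated mice were above every control and 1 lay among them. For Gars the response to WY differed by -0.74 (adjusted p = 0.0382) and for Lars by -1.18 (adjusted p = 0.00211), with 3 of 3 wild-type WY mice above every control for both genes and, for Lars, 3 of 3 PPARα-null WY mice below every control. The Gars call was lost in 10 of the 24 fits that left out 1 array, those of Iars and Lars in none. These were 1 of 37 members for HS and 2 of 37 for WY, against 1.87% and 6.23% of all genes.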

How the results depend on the processing

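Of 32 changes of single members that passed, 1088 repeats under other settings kept direction and call in 917, lost the call in 170 and reversed in 1: Gars for WY+HS against HS in wild-type mice, at -0.012 without scaling. For each change 24 of the repeats left out 1 array, often one outside the groups compared. Such a repeat moves only the SE and adjusted p, and cannot reverse the change. Calls of Gars after WY in wild-type mice were lost under no setting and those of Lars there only with a fit of the groups compared alone. Counts of members called moved as follows. With only the groups compared, WY in wild-type gave 2, HS in PPARα-null 0, HS by genotype 0, WY+HS against HS 0 in PPARα-null and 1 in wild-type, and genotype after HS 0; the cause was not tested. With the methods' test, WY in wild-type gave 2, WY+HS in wild-type 2, HS in PPARα-null 1, WY by genotype 1, WY+HS against HS 2 in PPARα-null and 1 in wild-type, and genotype after HS 5. With dim probe sets left out, HS by genotype gave 4 and WY+HS against HS in wild-type 4. With array weights, WY+HS in wild-type gave 8, HS by genotype 4 and WY+HS against WY in wild-type 1. A common median in place of quantiles gave 1 for WY by genotype, and it moved the median of bright genes by -0.15 for HS in PPARα-null and by 0.18 for WY+HS against HS there. Without scaling, a setting chosen after seeing the data, WY+HS in wild-type, HS in PPARα-null, HS by genotype, WY by genotype and WY+HS against HS in PPARα-null each gave 0 and WY+HS against WY in wild-type 2. Without the 3 arrays of high muscle signal, also chosen after seeing the data, WY+HS in wild-type gave 2, HS in PPARα-null 1, WY+HS against HS in PPARα-null 1, WY+HS against WY in wild-type 1, genotype after HS 1 and the F test 9.

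With each array left out in turn, counts ran from 0 to 1 for HS, 2 to 5 for WY and 2 to 6 for WY+HS in wild-type, 1 to 5 for HS in PPARα-null, 1 to 7 for HS by genotype, 1 to 3 for WY by genotype, 2 to 8 for WY+HS against HS in PPARα-null and 1 to 3 in wild-type, 0 to 1 for WY+HS against WY, 6 to 10 for genotype after HS and 8 to 18 for the F test, and stayed at 0 in the other 3 comparisons. WY in wild-type fell to 2 without mouse 1, and WY+HS there to 2 without mouse 1 or 12. HS in PPARα-null fell to 1 without mouse 13 or 16 and to 2 without 14 or 17. WY+HS against HS in PPARα-null fell to 2 without mouse 16 or 24 and to 3 without 17, and in wild-type to 1 without mouse 6. HS by genotype rose to 2 without mouse 4, 10 or 12, to 3 without 6 or 15 and to 7 without 18. WY+HS against WY rose to 1, Aars, without mouse 18. No paired analysis was possible because the labels give each mouse a number of its own, shared by no other group. Signal over background limits the 9 members that reached the floor.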
